A study of Homo sapiens with 8 samples.

Results

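RNA levels along chromosomes 13 and 16 were described in 8 populations of PC9, with the question of whether the sublines DS8 and DS9 change over the same stretches of these chromosomes. The members are the rows of the deposited count table whose name matches exactly 1 gene symbol of the GENCODE annotation on chromosome 13 or 16. They number 1425 of the 22112 rows placed on chromosomes 1 to 22 and X, with 533 on chromosome 13 and 892 on chromosome 16. PC9 is a human non-small cell lung cancer cell line with an EGFR exon 19 deletion, which all 8 populations carry. PC9-VU was kept at Vanderbilt University and PC9-MGH at Massachusetts General Hospital. PC9-BR1 was made from PC9-VU by raising the dose of the EGFR inhibitor afatinib and is the only population with the EGFR T790M mutation. DS3, DS6, DS7, DS8 and DS9 were each grown from 1 PC9-VU cell. How alike the cells of a subline were when RNA was taken is not measured in a bulk library. All populations express a red fluorescent histone in the nucleus, none was under drug when RNA was taken, and the passage number is given as 8 to 10.

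The amount of RNA made from a stretch of chromosome tends to follow how many copies of the stretch a cell holds, so a gain or loss of chromosomal material can be seen as a shift shared by many neighbouring transcripts. These files measure RNA and hold no measure of copy number, so the values below are RNA levels only. Chromosome 13 is acrocentric and carries its protein-coding genes on the long arm, among them RB1 (chr13:48303744-48599436 in hg38), whose product restrains entry into S phase, and BRCA2 (chr13:32315086-32400268), a repair factor of homologous recombination. Chromosome 16 has genes on both arms. CDH1 (chr16:68737292-68835537), which encodes E-cadherin, and CTCF (chr16:67562467-67639177), a factor that organises chromatin loops, lie on the long arm, 16q. TSC2 (chr16:2047967-2089491), an inhibitor of mTOR signalling, and CREBBP (chr16:3725054-3880713), a histone acetyltransferase, lie on the short arm, 16p. These genes are given as landmarks of position, and no value belongs to any of them.

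Each population has 1 library, so there are no replicates to test a difference against and p-values are not reported. Library totals over named rows ran from 2717355 to 3497722 counts, and all libraries were scaled together. Rows were analysed when their mean over the 8 libraries was at least 50 counts. This left 56 rows of chromosome 13 and 350 of chromosome 16, of which 201 lie on 16p and 149 on 16q. Of the other members, 310 rows of chromosome 13 and 190 of chromosome 16 have no count in any library. A row's name does not tell which transcript it counted. Of 84 rows named for ribosomal proteins, which every cell makes in quantity, 58 have a mean under 10 counts, while 23 of 353 rows named for olfactory receptors reach 10. For this reason the cell type could not be checked by its markers, no single row was read as a gene, and rows served only as markers of position.

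How far the counts lie from the named genes was measured by moving the exons of the rows' genes along the chromosome until the counts best followed the annotated exons. In blocks of 20 Mb, the best distance was between 538000 and 653000 bases on chromosome 13 and between 12000 and 51000 bases on chromosome 16. The correlation across rows was 0.61 to 0.86 there on chromosome 13, against 0.16 to 0.45 without a move, and 0.54 to 0.72 on chromosome 16, against 0.21 to 0.40. The best distance was the highest of all tried within 3000000 bases each way, so its correlation cannot be below that without a move. The best distances were similar across the blocks of a chromosome. The order of rows was therefore taken as usable, which was not tested. A boundary given below by the start of a named gene may lie off by about the best distance.

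Both sublines were lower than their parent PC9-VU over chromosome 13 and over 16q, and close to it over 16p. On 16q, the medians of DS8 and DS9 were alike in each of 3 stretches of the arm. The sum of counts over the whole arm was lower in DS8, though not in every stretch. On chromosome 13 their whole-chromosome medians were alike, but the stretches that made them up were not. DS8 was lowest near the centromere and stepped up 2 times along the chromosome, to a median above that of PC9-VU at the far end. DS9 had a median below PC9-VU in each of the 3 stretches so marked, by least near the centromere. Lower RNA at a similar level was thus seen in both DS8 and DS9 on 16q and in the middle of chromosome 13. In that middle it was plainest in the rows before its long gap. It was not shared at the end of chromosome 13.

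On 16q, the geometric mean level per row was 85.4 CPM (counts scaled to the size of the library) in PC9-VU, 87.8 in DS3, 90.4 in DS6 and 86.4 in DS7. It was 63.6 CPM in DS8, 65.3 in DS9, 65.6 in PC9-MGH and 96.6 in PC9-BR1. DS8, DS9 and PC9-MGH were the low libraries, and the other 5 did not overlap them. On 16p the same level lay between 98.0 and 107.6 CPM in all 8 libraries, with DS9 and DS8 the lowest.

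The median difference from PC9-VU over the 149 rows of 16q was -0.39 (log2 CPM) in DS8, with a 95% interval of the median over rows of -0.45 to -0.33, and 138 rows were lower. In DS9 it was -0.40, with an interval of -0.45 to -0.32, and 140 rows were lower. These medians correspond to 0.763 and 0.759 of the PC9-VU level. The interval describes the spread over rows, which are not replicates of a population. In DS3, DS6 and DS7 the median was 0.06, 0.07 and 0.03, in PC9-BR1 0.14 and in PC9-MGH -0.40. Both differences use the PC9-VU library, so they are given side by side. The direct difference, DS8 minus DS9, needs no reference and had a median of 0.015 over 16q, with an interval of -0.05 to 0.07, and DS8 was the lower in 70 of 149 rows.

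Another library in place of PC9-VU gave similar values on 16q. Against each of PC9-VU, DS3, DS6 and DS7 in turn, DS8 lay between -0.44 and -0.39 and DS9 between -0.46 and -0.40. Among these 4 reference libraries themselves, the 6 pairwise medians on 16q reached at most 0.069 in size. The shift of DS8 and DS9 was therefore larger than any difference between 2 of the 4 libraries, which is the only measure of library-to-library spread available. On 16p, DS8 stood at -0.066 and DS9 at -0.068 against PC9-VU, close to the medians over all 4529 rows, which were -0.022 and -0.047.

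**Figure D1:**
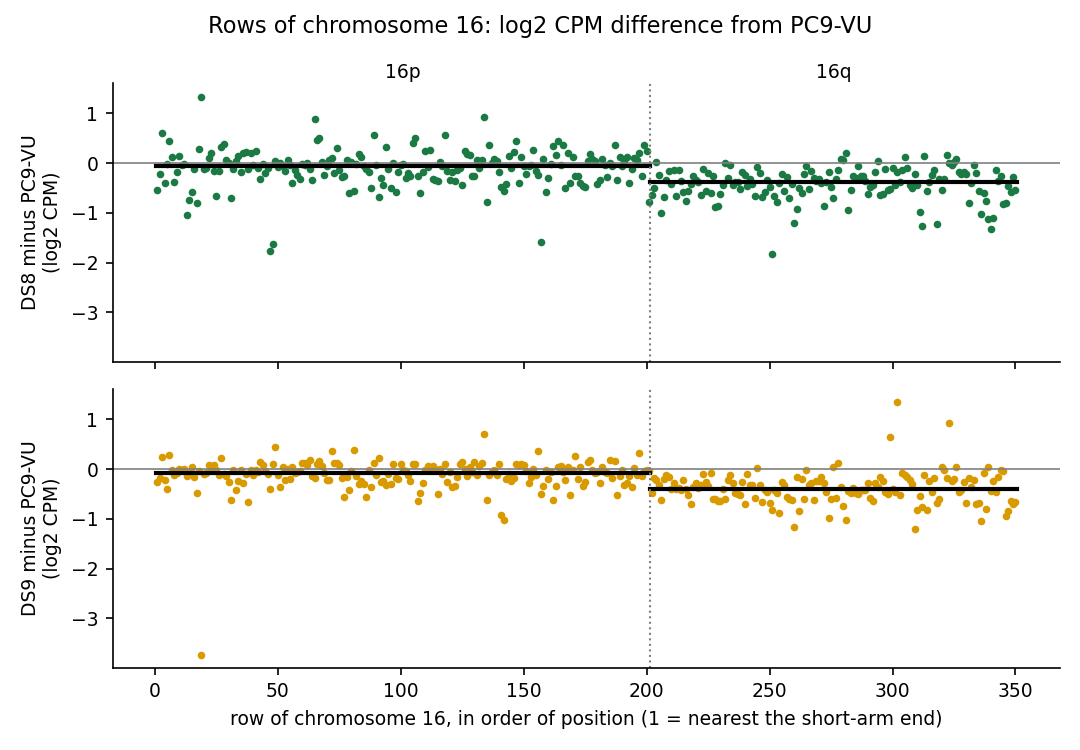
Log2 CPM difference from PC9-VU (vertical axis) of each of the 350 rows of chromosome 16, in order of position (horizontal axis, row number), for DS8 (upper panel) and DS9 (lower panel). Black lines are the medians of 16p (-0.066 in DS8 and -0.068 in DS9) and 16q (-0.39 and -0.40), and the dotted line marks the border of the arms, where both libraries step down. The row of 16p at -3.74 in DS9 is the same row that stands at 1.33 in DS8.

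The step on chromosome 16 fell at the centromere or near it in both sublines. When the rows were divided into stretches of a constant level, with the number of stretches set by a penalty on added steps, DS9 stepped down between the rows starting at 31483002 and 46578591, which are the last row of 16p and the first of 16q. DS8 stepped down 1 row earlier, between 31180138 and 31483002, since that last row was at -0.78 in DS8 and at -0.045 in DS9. When rows down to a mean of 10 counts were added, the step of both lay between 31180138 and 31458080. No row with 50 counts lies within the 15095589 bases around the centromere, so the step cannot be placed within them. DS3, DS6 and DS7 gave no step on chromosome 16, and neither did the difference of DS8 and DS9.

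PC9-MGH, which was also low on 16q, was low over a different extent in the rows with at least 50 counts. Its values divided 16q into 3 stretches at starts of 46578591 to 58665109, 66579448 to 81314944 and 81444808 to 89948697, with 38, 66 and 45 rows. With this filter of 50 counts, the first of these began on 16p, at 31114489, and had 41 rows with it. When rows down to a mean of 10 counts were added, the first began at 46578591, and the borders moved to 68530090 and 88715338. Then 5 rows from 88803789 to 88863333 formed a stretch of their own at -3.53. With the filter of 50 counts, the median of PC9-MGH was -0.73 in the 16q rows of the first, where all 38 were below PC9-VU, -0.34 in the second and 0.08 in the third. The stretches were drawn from these values, so they describe PC9-MGH. DS8 stood at -0.40, -0.38 and -0.39 in them, and DS9 at -0.37, -0.42 and -0.36. These are also differences from PC9-VU, the library PC9-MGH was compared with when the stretches were drawn. The stretch medians of both sublines were thus close to each other, while the windows described below varied more. The stretches hold the positions of CYLD (chr16:50742050-50801935), a deubiquitinase gene, in the first, CTCF and CDH1 in the second and FANCA (chr16:89726683-89816977), a gene of the Fanconi anaemia repair pathway, in the third.

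PC9-BR1 was higher at the 16q end, with a median of 0.54 in the third stretch and 0.0029 and 0.10 in the first 2, and over the first 21 rows of 16p, from 14381 to 729760, at 0.32. PC9-MGH also had a higher stretch on 16p, between starts of 25111731 and 31106107, with a median of 0.35 over 52 rows. The 5 sublines had no such higher stretch on either arm.

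Sums of counts gave the same direction on 16q with a small counting error. Summed over the arm, 53893 counts in DS8 against 91346 in PC9-VU gave a ratio of 0.730 after scaling (95% exact interval 0.722 to 0.738), and 70264 counts in DS9 gave 0.790 (0.783 to 0.798). These intervals cover counting error only. The sum follows the rows with most counts, and in the second stretch of 16q the ratio of sums was 0.706 in DS8 and 0.838 in DS9, while the medians corresponded to 0.767 and 0.746. In the first stretch the ratios of sums were close, at 0.743 in DS8 and 0.746 in DS9. In the third DS8 was the higher, at 0.771 against 0.735. Rows of fewer counts also placed DS8 below DS9. Over the 45 rows of 16q with a mean of 10 to under 50 counts, the median of DS8 minus DS9 was -0.25, and DS8 was the lower in 33. On 16p the ratios were 0.916 in DS8 and 0.934 in DS9.

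On chromosome 13, the geometric mean level per row was 53.2 CPM in PC9-VU, 58.6 in PC9-MGH, 65.6 in PC9-BR1, 56.4 in DS3, 55.5 in DS6 and 58.8 in DS7. It was 37.8 CPM in DS8 and 40.1 in DS9, below each of the other 6. The median difference from PC9-VU over 56 rows was -0.42 in both, with an interval of -0.58 to -0.24 in DS8 and -0.48 to -0.30 in DS9. In DS8, 41 rows were lower and in DS9 52. Ranked among 23 chromosomes by these medians, chromosome 13 was lowest in DS9 and the second from the lowest in DS8. The other 5 libraries had medians of 0.06 to 0.30 on chromosome 13.

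The values of DS8 divided chromosome 13 into 3 stretches, called proximal (8 rows, starts 19173772 to 23730189), middle (33 rows, starts 24764169 to 109752695) and distal (15 rows, starts 110148963 to 113667219). The same 3 stretches came out of the difference of DS8 and DS9. DS9 against PC9-VU gave 1 stretch, as did DS3, DS6, DS7 and PC9-MGH, and PC9-BR1 gave 2, with a median of 0.12 up to a start of 93226807 and 0.43 from 97221434. When rows down to a mean of 10 counts were added, PC9-MGH also gave 2, with 0.013 up to 93226807 and 0.42 from 95019835. The division into proximal, middle and distal was made after seeing the data and from DS8, so its values for DS8 are a description. Those of DS9 and the others share with it the PC9-VU library that DS8 was compared with.

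**Figure D2:**
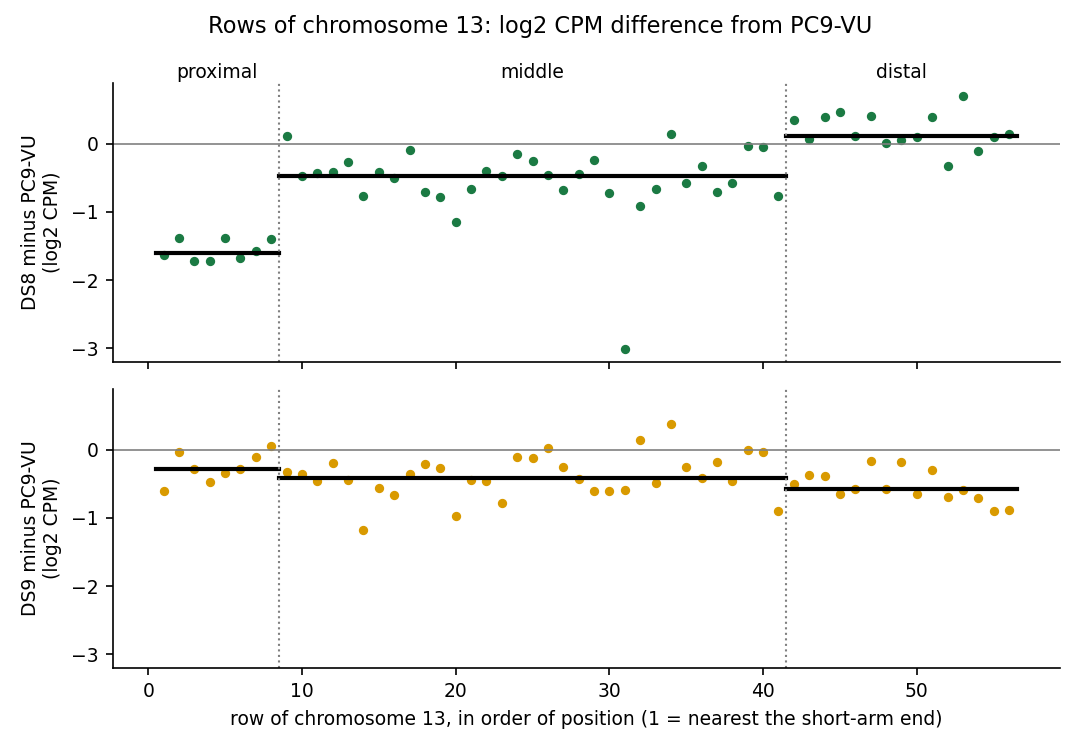
Log2 CPM difference from PC9-VU (vertical axis) of each of the 56 rows of chromosome 13, in order of position (horizontal axis, row number), for DS8 (upper panel) and DS9 (lower panel). Black lines are stretch medians and dotted lines the borders of the stretches: DS8 steps from -1.60 to -0.47 and to 0.11, while DS9 stays below PC9-VU at -0.28, -0.41 and -0.58.

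In the proximal stretch, the 8 rows summed to 608 CPM in PC9-VU, 689 in PC9-MGH, 705 in PC9-BR1, 653 in DS3, 643 in DS6, 756 in DS7, 213 in DS8 and 485 in DS9. DS8 was far below the other 7 libraries and DS9 was the next lowest. The 8 rows of DS8 lay between -1.73 and -1.39 from PC9-VU, a narrow range around a median of -1.60, which is 0.330 of the PC9-VU level. The counts per row ran from 75 to 1158 in PC9-VU and from 22 to 357 in DS8. In DS9 the median was -0.28 and 7 of the 8 rows were lower. Against each of the 4 reference libraries, DS8 lay between -1.90 and -1.59 and DS9 between -0.64 and -0.28, while pairs of the references differed by up to 0.295. The stretch was drawn where DS8 was below PC9-VU, so its DS8 values only describe these rows. DS8 was below each reference by more than the references differ among themselves. DS9 was below DS3, DS6 and DS7 by more than that, though only just for DS3 at -0.30, and below PC9-VU by less. The ratio of summed counts to PC9-VU was 0.351 in DS8 (95% exact interval 0.320 to 0.384) and 0.798 in DS9 (0.748 to 0.851).

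In the middle stretch, the 33 rows summed to 5033 CPM in PC9-VU, 5369 in PC9-MGH, 5764 in PC9-BR1, 5238 in DS3, 5741 in DS6, 5683 in DS7, 3547 in DS8 and 3834 in DS9. Here DS8 and DS9 were both below the range of the other 6 libraries. The median difference from PC9-VU was -0.47 in DS8, with 31 of 33 rows lower, and -0.41 in DS9, with 30 lower. Their ratios of summed counts were 0.705 (0.688 to 0.722) and 0.762 (0.745 to 0.779). The direct difference of DS8 minus DS9 had a median of -0.11 and an interval over rows of -0.21 to 0.06. Against the 4 references, DS8 lay between -0.65 and -0.47 and DS9 between -0.57 and -0.37, and pairs of references differed by up to 0.18. This stretch holds the positions of BRCA2, RB1 and CDK8 (chr13:26254104-26420982), a kinase of the Mediator complex, and of KLF5 (chr13:73054976-73077541), an epithelial transcription factor. KLF5 lies in a part of it with almost no rows, described below, where the 2 rows show no common level. ERCC5 (chr13:102845831-102875995), an endonuclease of nucleotide excision repair, lies in it only with the filter of 50 counts.

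The middle stretch was sampled unevenly. Its first 22 rows end at a start of 52033611, with medians of -0.46 in DS8 and -0.43 in DS9. Its last 10 rows begin at 93226807, with medians of -0.58 and -0.22. Over these 10 rows pairs of references differed by up to 0.43, DS8 lay between -0.68 and -0.26 from the 4 references and DS9 between -0.51 and -0.13, so neither was clear of that spread. Between them only 1 row reached a mean of 50 counts and 2 reached 10, so 41.2 Mb of the chromosome were nearly unmeasured. The first of them, starting at 59665583, had 48 counts in PC9-VU, 36 in DS8 and 27 in DS9, with differences of -0.10 and -0.74. The other, starting at 77042474, had 156 counts in PC9-VU, 14 in DS8 and 100 in DS9, with differences of -3.01 and -0.59. DS8 was the lower in 1 row and DS9 in the other, so they show no common level.

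In the distal stretch, the 15 rows summed to 1207 CPM in PC9-VU, 1520 in PC9-MGH, 1543 in PC9-BR1, 1373 in DS3, 1099 in DS6, 1197 in DS7, 1297 in DS8 and 803 in DS9. DS9 alone was below the range of the rest, and DS8 lay inside it. The median was -0.58 in DS9, with all 15 rows below PC9-VU, and 0.11 in DS8, with 2 rows lower. DS8 was higher than DS9 in each of the 15 rows, with a median difference of 0.69 (interval over rows 0.56 to 1.01). The same border came out of this difference itself, so the count and the interval only describe these rows. Over the 4 rows with a mean of 10 to under 50 counts, the median of this difference was 0.405, and DS8 was the lower in 1. Against the 4 references, DS9 lay between -0.68 and -0.44 and DS8 between 0.08 and 0.37, and pairs of references differed by up to 0.25. The ratio of summed counts was 1.08 in DS8 (1.03 to 1.12) and 0.666 in DS9 (0.634 to 0.699). The stretch covers the last 3.59 Mb with rows. ING1 (chr13:110712736-110723339), which encodes a reader of histone methylation, lies past its first row by less than the 653000 bases by which counts were displaced here, so its side of the border is uncertain.

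The border between the middle and the distal stretch depended on the filter. When rows down to a mean of 10 counts were added, DS8 stepped up between starts of 99981784 and 101053776 instead of 109752695 and 110148963, while the difference of DS8 and DS9 stepped at the latter in both cases. The proximal border lay between 23730189 and 24764169, and between 24331450 and 24764169 with the lower filter. The rows of 10 to under 50 counts, which were not used to draw the stretches, had medians in the middle stretch of -0.29 in DS8 and -0.46 in DS9 over 14 rows. In the distal stretch the 4 such rows had medians of 0.19 and -0.15. There was no such row in the proximal stretch.

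**Figure D3:**
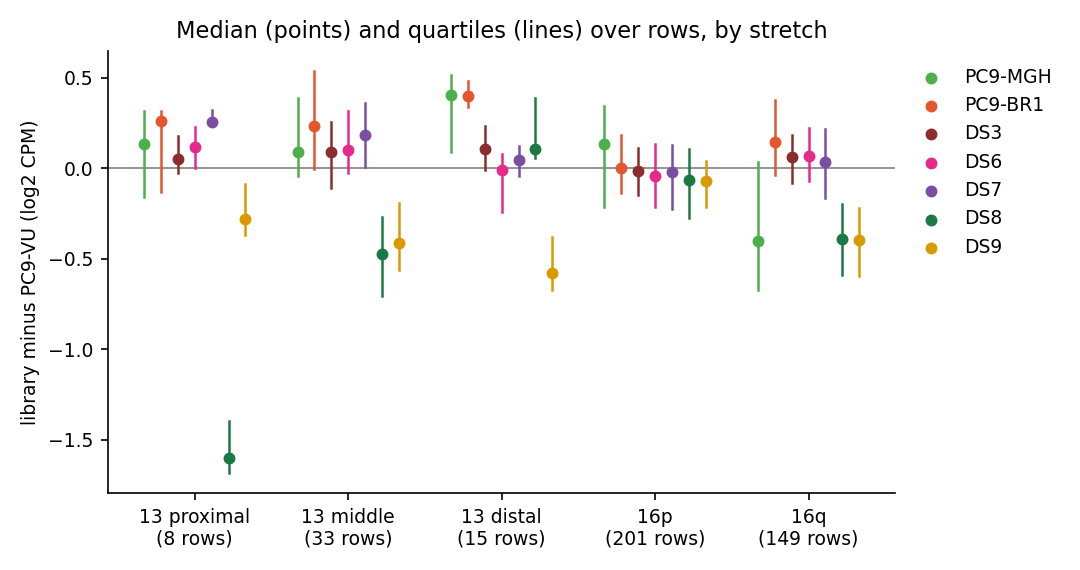
Median (points) and quartiles over rows (lines) of the log2 CPM difference from PC9-VU (vertical axis) for 7 libraries in the 3 stretches of chromosome 13 and in both arms of chromosome 16. DS8 and DS9 lie together and below the other sublines in the middle of chromosome 13 and on 16q, and apart in the proximal stretch (-1.60 and -0.28) and the distal stretch (0.11 and -0.58).

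Windows of 15 neighbouring rows were counted without the division into stretches. There were 299 windows in all, with 4 on chromosome 13, 13 on 16p and 10 on 16q, and a window was called lower at a median of -0.3 or below, which is 0.81 of the level of PC9-VU. In DS8, 3 of 4 windows on chromosome 13, 7 of 10 on 16q and 0 of 13 on 16p were lower, against 8.03% of all windows. In DS9 the counts were 4 of 4, 7 of 10 and 0 of 13, against 8.7%. DS3, DS6, DS7 and PC9-BR1 had no lower window on either chromosome, and PC9-MGH had 6, all on 16q.

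The windows of chromosome 13 show how DS8 and DS9 parted. In chr13:19173772-36131382 the medians were -1.39 in DS8 and -0.34 in DS9. This window holds the 8 proximal rows and rows of the middle stretch, so it spans the step of DS8 between starts of 23730189 and 24764169. Its DS8 median is that of the highest proximal row and does not describe DS8 out to 36131382. The next window, chr13:36431520-52129092, stood at -0.47 and -0.43, and chr13:77042474-111901264 at -0.33 and -0.39. The last window, chr13:112197350-113737736, stood at 0.10 in DS8 and -0.59 in DS9. These values span 1.49 in DS8 and 0.25 in DS9.

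On 16q all 10 windows were below 0 in both libraries. The lowest in DS9 was chr16:67159932-67929676, at -0.57, where DS8 stood at -0.58. The lowest in DS8 was the last of the arm, chr16:89490719-89968060, at -0.59, with DS9 at -0.45. The windows nearest 0 were chr16:72063148-81711762 in DS8, at -0.19, and chr16:87949244-89490561 in DS9, at -0.25. Of the others, chr16:46578591-56357444 stood at -0.42 in DS8 and -0.33 in DS9, chr16:56361452-57971128 at -0.45 and -0.39, and chr16:57976435-67101058 at -0.31 in both. The window chr16:67987394-69704666 was called in DS8 alone, at -0.39 against -0.28, and chr16:69706996-72061055 in DS9 alone, at -0.44 against -0.26. At chr16:84009667-87698156 both stood at -0.45. The direct difference of the sublines lay between -0.16 and 0.16 in all 10 windows.

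On 16p no window was called in either subline. DS8 ranged from -0.25, at chr16:29381310-30070457, to 0.00078, at chr16:680224-1781708. DS9 ranged from -0.18, at chr16:4425805-8862534, to 0.08, at chr16:2969270-4425705. DS8 minus DS9 lay between -0.09 and 0.13 over the 13 windows.

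**Figure D4:**
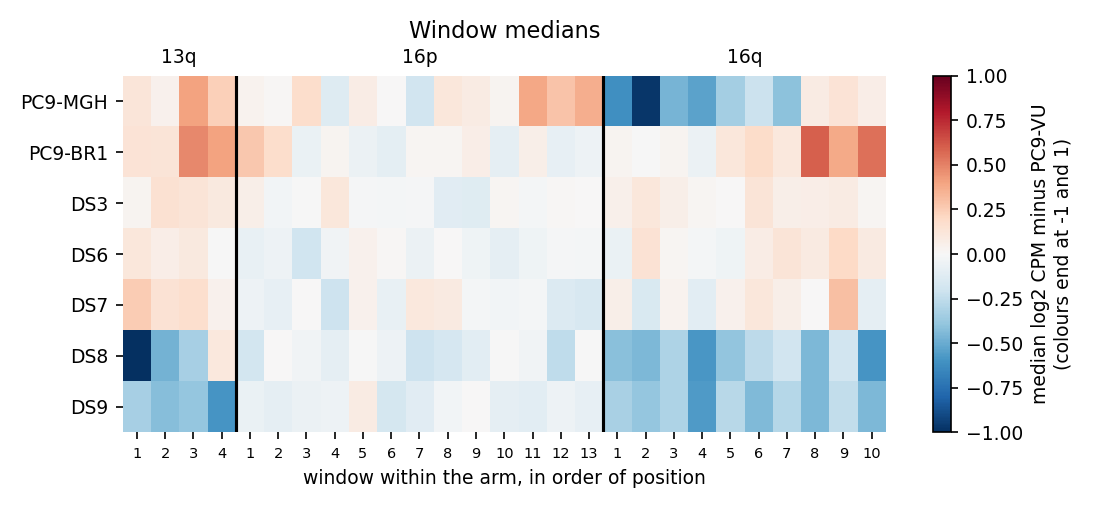
Median log2 CPM difference from PC9-VU (colour, blue for lower and red for higher, ending at -1 and 1) in windows of 15 neighbouring rows, with 1 line per library and the windows of 13q, 16p and 16q in order of position along the horizontal axis. DS8 and DS9 are blue in all 10 windows of 16q, and on 13q DS8 goes from -1.39 to 0.10 while DS9 stays between -0.59 and -0.34. The first window of 13q holds rows on both sides of the step of DS8 from the proximal to the middle stretch.

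Because DS8 and DS9 share PC9-VU as reference, windows lower in both were counted with separate references, DS8 against the mean of PC9-VU and DS3 and DS9 against the mean of DS6 and DS7. By this count 7 of 10 windows of 16q, 0 of 13 of 16p and 2 of 4 of chromosome 13 were lower in both, against 3.68% of the 299 windows. Of the 272 windows on other chromosomes, 2 were lower in both, and both lie on chromosome 7. With the references exchanged the counts on chromosome 13 and 16q were again 2 and 7.

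A count by rank took no single library as baseline. Windows in which both DS8 and DS9 were below each of PC9-VU, DS3, DS6 and DS7 numbered 3 of 4 on chromosome 13, 10 of 10 on 16q and 4 of 13 on 16p, against 17.7% of all windows. Among single rows, both sublines were below the same 4 libraries in 32 of 56 on chromosome 13 (57.1%) and 101 of 149 on 16q (67.8%), against 12.7% of all 4529 rows. The share on 16p was 13.4%, near that of all rows. The 32 rows of chromosome 13 lay mostly in the middle stretch, with 25 of its 33 rows, while the proximal stretch had 6 of 8 and the distal stretch 1 of 15. Both sublines were above the 4 libraries in 0 rows of chromosome 13 and in 1 row of 16q (0.67%), against 7.84% of all rows.

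**Figure D5:**
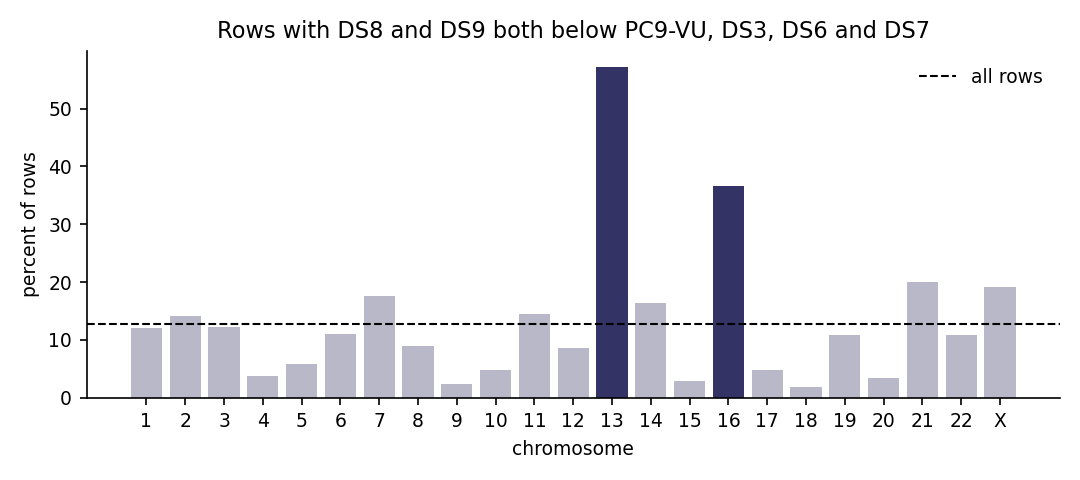
Share of the rows of each chromosome (bars, percent) in which DS8 and DS9 are both below PC9-VU, DS3, DS6 and DS7. Chromosomes 13 (57.1%) and 16 (36.6%) are the 2 highest of 23, the next is chromosome 21 at 20%, and the dashed line marks the 12.7% of all rows.

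Rows at least 1.5-fold below PC9-VU were also more frequent than among all rows. In DS8 they made up 20 of 56 rows on chromosome 13 (35.7%) and 38 of 149 on 16q (25.5%), against 8.66% of all rows. In DS9 they made up 16 rows on chromosome 13 (28.6%) and 40 on 16q (26.8%), against 5.37%. On 16p the shares were 7.96% and 3.98%. All 8 proximal rows of chromosome 13 passed this fold in DS8 and 1 did in DS9, while 7 of the 15 distal rows did in DS9 and 0 in DS8.

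Chromosome 13 has a low GC content, at a median of 42.3% around its named genes, against 49.4% on chromosome 16. After a correction for GC content, the medians were -0.49 in DS8 and -0.46 in DS9 on chromosome 13, and -0.40 in both on 16q. The proximal stretch stood at -1.65 in DS8, and the distal stretch at 0.14 in DS8 and -0.57 in DS9. GC content was taken from the named gene and 250000 bases on each side. The counts of chromosome 13 lay farther than that from the named genes, at 538000 to 653000 bases. On that chromosome the correction may therefore miss the counted sequence and cannot settle an effect of GC content. Neighbouring rows can lie close enough to count the same transcript, since 223 pairs of neighbours on chromosome 16 start under 100000 bases apart, against 8 on chromosome 13. With 1 row for each 500000 bases, chosen after seeing the data, the medians of 42 rows of 16q were -0.39 in DS8 and -0.40 in DS9. The distal stretch then kept 7 rows, at 0.11 and -0.65, and the proximal stretch 5 rows, at -1.63 and -0.34. A lower amount of RNA per cell and a smaller share of cells with this RNA cannot be told apart in bulk libraries.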

How the data were processed

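The data are 8 bulk RNA-seq libraries, 1 for each PC9 population. RNA was depleted of ribosomal RNA and selected for poly-A. Per the submitters' processing notes, STAR (version 2.5.2b) aligned the reads to the hg38 genome, and featureCounts (version 1.6.4) counted them. The authors deposited raw counts per row in 1 table, without normalization. Strandedness is not given in the sources used here. Of 30988 rows, 8324 carry no symbol, hold 4.23% to 4.41% of the counts and were left out.

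Rows were placed on chromosomes by their symbol (GENCODE release 44, hyphens read as dots). Log2 CPM was computed with edgeR (version 4.0.16, R version 4.3.3), TMM factors over all 8 libraries and a prior count of 2, for rows that averaged 50 counts or more. Each library was compared with PC9-VU by the median over rows, with a distribution-free binomial interval, and in windows of 15 rows, cut where a chromosome has its longest stretch without a protein-coding gene start. For chromosome 16 this lies between starts of 34351499 and 46578591 and separates the arms. For chromosome 13 it lies between 53028813 and 57140918. With 1 library per population there is no test and no p-value. Ratios of summed counts have exact (Clopper-Pearson) 95% intervals, which cover counting error only and treat reads as independent. Stretches were found by least absolute deviation from the median of each stretch, with a penalty on each step and at least 5 rows each.

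Populations were grouped by their labels. Alternatives covered the filter, size factors and rlog of DESeq2 (version 1.42.0), the prior count, the reference, GC content (lowess fit in Python, version 3.11.15), window size, thresholds and the fold. The medians and the stretches were tested on simulated counts with 16q lowered in DS9. The search for displaced counts was tested with a single distance, shorter than those found on chromosome 13. The division of chromosome 13 into stretches was not simulated. The chromosomes, lists and tests were chosen with earlier results of these data known. By the rule for names, no gene was named from a row, windows called or extreme in an arm were named by position, and landmark genes have coordinates only. The stretches of chromosome 13 and 16q were drawn after the values were seen. No sequence is shown, since rows do not identify transcripts.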

Additional observations from a re-analysis of the deposited data

Results flagged for a closer look

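Medians of the 5 sublines were compared in 10 stretches, arms and chromosomes for 1 subline standing apart, and 2 of the 10 did. Chance gives about 5% per comparison for regions set apart from the values, which does not hold here, since the stretches of chromosome 13 were drawn from DS8 and some of the 10 regions contain others. Each subline has a single library, so these values describe libraries. In the proximal stretch of chromosome 13, DS8 stood at -1.60 (median log2 difference from PC9-VU), against -0.28 to 0.25 in the other 4 sublines. The stretch was drawn where DS8 was low, which favours such a gap. In the distal stretch of chromosome 13, DS9 stood at -0.58, more exactly -0.577, against -0.0076 to 0.11 in the other 4. Its border was drawn where the difference of DS8 from PC9-VU stepped up, and DS9 is compared with the same PC9-VU library. On 16q no subline stood apart, since DS8 and DS9 were both low.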

How the results depend on the processing

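Depth limited the rows with few counts, which were left out by the filter, and no population has a replicate. No paired analysis was possible because each population has 1 library, so no result compares groups of replicates. The medians of DS8 and DS9 on 16q were below 0 in all 12 alternatives, from -0.56 to -0.24 and from -0.44 to -0.22. No median of DS8 or DS9 on the chromosomes or arms rose above 0. Where values moved, the cause was not tested, except that rlog by its construction shrinks values toward the mean of a row, and stricter thresholds call fewer windows and rows.

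Without a filter, the medians in DS8 and DS9 were 0 and -0.041 on chromosome 13, and -0.16 and -0.12 on chromosome 16, with -0.030 on 16p and -0.28 on 16q in DS9. With rlog they were -0.23 and -0.22 on chromosome 13, -0.12 and -0.094 on chromosome 16, -0.24 and -0.22 on 16q, and -0.023 on 16p in DS9. With DESeq2 size factors 16p was -0.034 in DS9, and against the median of DS3, DS6 and DS7 chromosome 13 was -0.53 in DS9. Over rows of 10 to under 50 counts alone, chosen after seeing the data, chromosome 13 was -0.20 in DS8, chromosome 16 was -0.35 and -0.13, 16p was -0.024 and -0.013, and 16q was -0.56 and -0.24. At a window threshold of -0.5, 25% of the windows of chromosome 13 were lower in each of DS8 and DS9, 8.70% and 4.35% of those of chromosome 16, and 0% there in both with separate references. At a fold of 2, the rows lower were 17.9% and 1.79% on chromosome 13 and 3.43% and 1.71% on chromosome 16.

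In the other libraries, medians whose interval over rows did not include 0 changed sign 8 times. Changes of sign in medians whose interval included 0 are not listed. The median of DS7 on 16p was 0.0047 with DESeq2 size factors, 0.0016 with rlog, 0.023 against the median of DS3 and DS6, and 0.058 with 1 row for each 500000 bases. That of DS3 was -0.0099 on 16q against the median of DS6 and DS7 and -0.00097 on chromosome 13 with PC9-VU added to them. Over rows of 10 to under 50 counts, PC9-MGH was -0.022 on chromosome 13 and -0.12 on 16p, against 0.13 on each in the main setting.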
